A study of Rattus norvegicus with 20 samples.

Results

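Ligand-gated ion channel subunits of the GABA-A, glycine, AMPA, kainate, NMDA, nicotinic and 5-HT3 receptor families were followed in rat dorsal root ganglia after injury of the sciatic nerve. Members were all probe sets annotated to 1 gene whose current symbol starts with Gabra, Gabrb, Gabrg, Gabrd, Gabrr, Gria, Grik, Grin1, Grin2, Grin3, Glra, Glrb, Chrna, Chrnb or Htr3. A probe set is a group of short oligonucleotides for 1 transcript. This gave 71 probe sets for 44 genes, among 4736 genes that the array names by 1 symbol, and for a gene with several, the probe set of highest mean over all arrays stands for the gene. The families held 13 GABA-A, 3 glycine, 4 AMPA, 5 kainate, 6 NMDA and 12 nicotinic subunit genes and Htr3a.

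The study compared the ganglia of the operated side in 2 models of neuropathic pain with those of sham-operated rats, on 20 arrays in 8 groups. Chronic constriction injury (CCI) was sampled at 14 and 21 days with 3 arrays each. The Seltzer model, which the labels describe as a transection of the sciatic nerve, was sampled at 14 days with 2 arrays, at 21 days with 3 and at 50 days with 2, and sham ganglia with the same numbers at the same days. Strain, sex, age, the spinal level of the ganglia and pooling of animals are not given in the labels. The labels do not say either that replicates were separate animals, so the p-values below measure the spread between these samples, which may be technical.

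GABA-A and glycine receptors are pentameric chloride channels. In sensory neurons, which keep a high chloride concentration into adulthood, GABA-A receptors depolarise the primary afferent and dampen its output to the spinal cord. AMPA, kainate and NMDA receptors are tetrameric cation channels opened by glutamate, nicotinic receptors are pentameric cation channels opened by acetylcholine, and 5-HT3 receptors are the cation channels among the serotonin receptors. In the ganglion they sit on cell bodies, and the same subunits are carried to the peripheral and the central terminals of the axon.

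Values are the deposited intensities, on a linear scale that runs below 0. A level was called above background on an array when it exceeded the size that 95% of that array's negative values stayed under. This background level lay between 169 and 326 on 17 arrays. It was 499 on CCI replicate 1 at 21 days, and 766 and 599 on the 2 Seltzer arrays at 50 days, where 8.92% and 11.0% of probe sets were above background against 16% to 25.8% on the 17 arrays. On the same Seltzer arrays the signal of the 3′ probe set for the control transcript GAPDH was 8.89 and 5.10 times that of the middle one. It was 2.84 and 2.85 times on the sham arrays of 50 days, and at most 2.04 times on arrays of 14 and 21 days. The 3′ GAPDH signal itself was 1011 to 1543 on the arrays of 50 days and at least 2271 on all others. Sham arrays of 50 days thus differed from those of earlier days as well. All results for Seltzer injury at 50 days rest on these 2 Seltzer arrays. Markers of sensory neurons identified the tissue: 9 to 16 of 18 measured were above background, with Calca, Tac1, Prph and Uchl1 above it on every array. Of 12 spinal cord and brain markers at most 1 was above background on any array, and Gad1, Gad2, Slc32a1, Chat and Slc6a5, which define GABA, acetylcholine and glycine neurons, never were. Of 7 sympathetic neuron markers only Npy was ever above background, and Th and Dbh never were. Npy was above it on 11 arrays, all those of CCI and Seltzer injury at 14 and 21 days, and on no sham array. Skeletal muscle genes, 2 to 11 of 20, were also above background.

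Most subunits were not measurable in the ganglion on this array. Taking a gene as expressed when it was above background on at least 50% of the arrays of any group, 6 of 44 subunits (13.6%) were expressed, against 1673 of the 4736 genes (35.3%), and 38 of 44 (86.4%) were not above background on any array, against 62.3% of all genes. The 6 were Htr3a, above background on 20 of 20 arrays, the nicotinic subunit Chrnb4 on 19, the GABA rho subunit Gabrr1 on 12, the NMDA subunit Grin2b on 8, the nicotinic subunit Chrnb2 on 5 and the kainate subunit Grik4 on 1. The count depends on the level taken as background. With the level that 99% of negative values stayed under, only Htr3a was left, and with a fixed intensity of 200 there were 18, while leaving out the Seltzer arrays at 50 days or accepting any probe set of a gene kept it at 6.

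**Figure D1:**
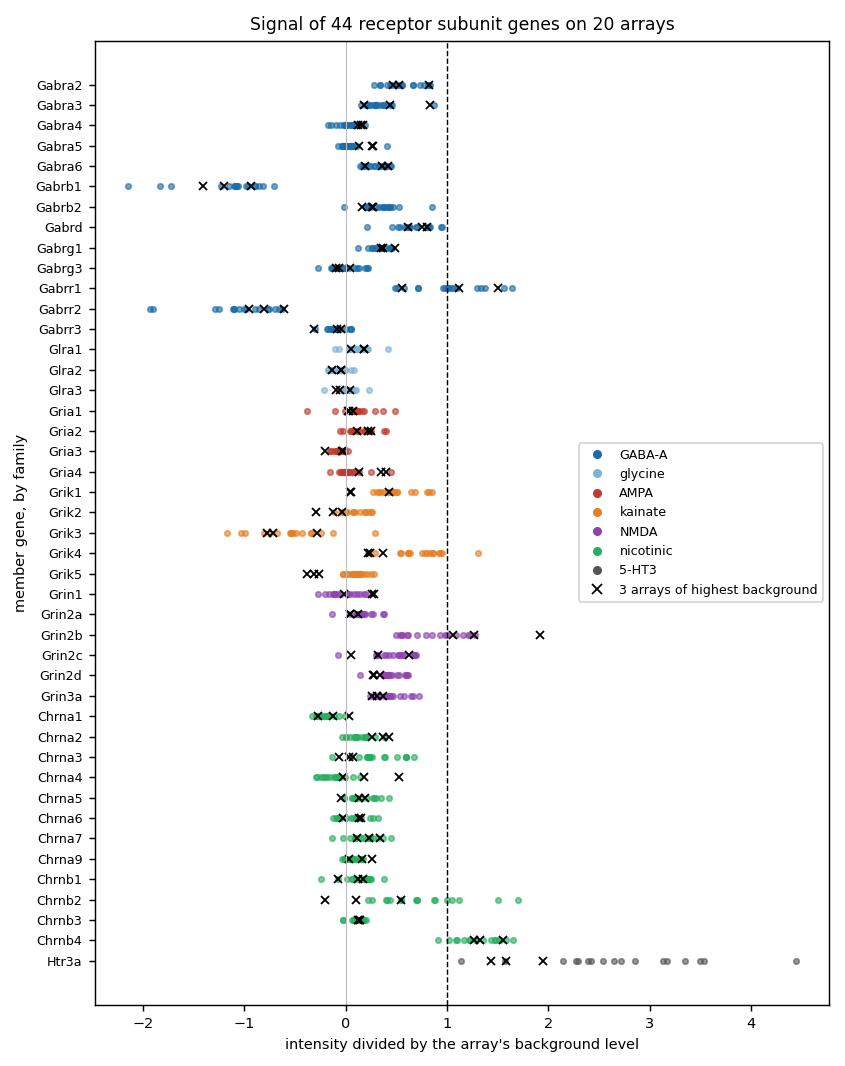
Intensity divided by the background level of its array (horizontal axis, no unit) for the 44 subunit genes (vertical axis), 1 point per array, coloured by family, with crosses for CCI replicate 1 at 21 days and both Seltzer arrays at 50 days. The dashed line marks the background level: Htr3a lies to its right on 20 of 20 arrays, Chrnb4 on 19 and Gabrr1 on 12, and 38 genes lie to its left throughout.

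Htr3a (probe set U01227_s_at) encodes the 5-HT3A subunit, the part without which 5-HT3 receptors do not form, and is known from nociceptive afferents. In sham ganglia its intensity was 710 and 779 at 14 days, 683, 738 and 802 at 21 days, and 1090 and 971 at 50 days. In CCI ganglia it was 534, 425 and 526 at 14 days and 790, 388 and 559 at 21 days. In Seltzer ganglia it was 600 and 483 at 14 days, 319, 568 and 668 at 21 days, and 1103 and 1165 at 50 days. At 14 days all 5 injured arrays lay below both sham arrays, and at 21 days all 3 Seltzer arrays lay below the 3 sham arrays, whereas the CCI array of high background reached into the sham range. The highest values of both surgeries were those at 50 days, where the Seltzer arrays lay above the sham arrays.

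Chrnb4 (U42976_at) encodes the nicotinic beta4 subunit, which forms ganglionic-type receptors with alpha3. Its intensity was 274 and 227 in sham ganglia at 14 days, 468, 329 and 274 at 21 days, and 358 and 323 at 50 days. CCI ganglia gave 260, 260 and 352 at 14 days and 663, 268 and 316 at 21 days. Seltzer ganglia gave 241 and 242, then 465, 254 and 376, and at 50 days 974 and 931. Without the 3 arrays of high background the values stayed between 227 and 468, and the highest 3 of the 20 values were on those 3 arrays. The second probe set of the gene, J05232cds_s_at, was never above background.

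Gabrr1 (X95579_at) encodes the rho1 subunit, which forms GABA receptors that do not respond to bicuculline. It was at 245 and 142 in sham ganglia at 14 days, 226, 149 and 247 at 21 days, and 437 and 456 at 50 days. In CCI ganglia it was at 210, 177 and 118, then 277, 119 and 225. In Seltzer ganglia it was at 232 and 179, then 366, 211 and 457, and at 50 days 856 and 898. The highest values in sham and in Seltzer ganglia were those of 50 days, and the highest of the earlier days, on Seltzer replicate 3 at 21 days, was about that of sham ganglia at 50 days. The Seltzer arrays of 50 days are those of highest background.

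Grin2b (U11419_at) encodes GluN2B, a glutamate-binding NMDA subunit. Sham ganglia gave 259 and 196 at 14 days, 225, 205 and 231 at 21 days, and 162 and 172 at 50 days. CCI ganglia gave 121, 212 and 252, then 955, 138 and 233. Seltzer ganglia gave 202 and 207, then 156, 111 and 272, and at 50 days 810 and 760. The 3 highest values were those of the 3 arrays of high background, and the other 17 lay between 111 and 272.

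Chrnb2 (L31622_at), the beta2 subunit that pairs with alpha4 in the main nicotinic receptor of the brain, ran from 45.3 to 334 within the sham group at 21 days and was -159 and 328 on the Seltzer arrays at 50 days. Grik4 (U08257_at), a high-affinity kainate subunit, ranged from 69.9 to 292 and exceeded background only on sham replicate 1 at 14 days. Neither passed the test in any comparison of the fit to all arrays. Chrnb2 was called lower at 50 days after Seltzer injury when Seltzer replicate 2 of that day was left out, which leaves the array at -159 alone.

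The other subunits were described by their ranges. Of the 13 GABA-A genes, Gabrr1 alone passed the background level: the alpha subunits Gabra2 to Gabra6, the beta subunits Gabrb1 and Gabrb2, the gamma subunits Gabrg1 and Gabrg3, Gabrd and the rho subunits Gabrr2 and Gabrr3 never did. Gabrd (M35162_at), the delta subunit of extrasynaptic receptors, came closest, at 0.213 to 0.956 times the background level, and Gabra2 (L08491cds_at) lay at 0.281 to 0.830 times it. Gabrb1 and Gabrr2 were below 0 on all 20 arrays, and their log-scale values were therefore the same on every array, so that they could show no difference. The glycine receptor alpha subunits Glra1, Glra2 and Glra3 reached at most 0.416 times background. The 4 AMPA subunits, Gria1 to Gria4, reached at most 0.484 times background.

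Among kainate subunits Grik1 (M83561_s_at), which encodes GluK1, the subunit known from small-diameter sensory neurons, lay at 0.0424 to 0.853 times background. Grik2 and Grik5 were never above it, and Grik3 was below 0 on 19 arrays. Of the NMDA subunits Grin1, the glycine-binding subunit that every NMDA receptor contains, was below 0 on 10 arrays, and Grin2a, Grin2c, Grin2d and Grin3a were never above background. Among the nicotinic subunits the muscle genes Chrna1 and Chrnb1 were never above background, although other muscle genes were, and neither were Chrna2 to Chrna7, Chrna9 and Chrnb3. Over the 44 genes, 13 were above 0 on all 20 arrays and 10 were below 0 on at least 10. Of the 44, 28 (63.6%) had their highest value on 1 of the 3 arrays of high background, against 47.8% of all genes, and 13 (29.5%) had their lowest there, against 46.1%.

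Chrna5, Chrna3 and Chrnb4 are neighbours in the genome, as are Gabrb1 and Gabra4, Gabra2 and Gabrg1, Gabra6 and Gabrb2, Gabrg3 and Gabra5, Gabrr2 and Gabrr1, and Chrna6 and Chrnb3. The RefSeq promoter table of the rat build GRCr8 held 33 of the 44 genes. The 250 bases upstream of the start are shown for the neighbours Chrna3 and Chrnb4, whose subunits form a receptor together, and for Grik1, the subunit called lower at 50 days after Seltzer injury. They run 5′ to 3′ on the minus strand, at chr8:64311252-64311501, chr8:64333110-64333359 and chr11:41056504-41056753, and capitals mark the GC box GGGCGG on either strand.
Chrna3: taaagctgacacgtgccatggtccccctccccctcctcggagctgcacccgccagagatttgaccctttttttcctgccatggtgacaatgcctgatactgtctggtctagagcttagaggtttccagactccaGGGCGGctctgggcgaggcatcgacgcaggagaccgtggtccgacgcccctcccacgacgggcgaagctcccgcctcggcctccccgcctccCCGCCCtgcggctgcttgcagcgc
Chrnb4: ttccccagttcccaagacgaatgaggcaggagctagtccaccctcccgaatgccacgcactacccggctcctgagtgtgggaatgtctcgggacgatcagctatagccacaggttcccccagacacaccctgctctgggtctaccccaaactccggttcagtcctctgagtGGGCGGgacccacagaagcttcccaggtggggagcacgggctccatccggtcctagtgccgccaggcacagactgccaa
Grik1: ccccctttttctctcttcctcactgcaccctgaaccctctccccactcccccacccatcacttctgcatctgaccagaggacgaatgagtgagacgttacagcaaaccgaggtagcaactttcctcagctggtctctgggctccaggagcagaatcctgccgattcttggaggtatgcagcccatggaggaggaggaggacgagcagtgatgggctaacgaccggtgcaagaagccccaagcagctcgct
Chrna3 held 2 GC boxes, Chrnb4 held 1 and Grik1 held none. The GC box was found in 15 of the 33 subunit promoters (45.5%) and in 30.5% of 33469 rat promoters. The TATA box letters TATAAA were in 4 of 33 (12.1%) and in 12.9% of all. The AP-1 letters TGANTCA, where N is any base, and the cyclic AMP response element TGACGTCA were in 0 of 33, and in 6.34% and 1.59% of all promoters.

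The CCI comparison asks which subunits differ from sham after loose ligation of the nerve. In limma's moderated test on log2(intensity + 16), with negative values set to 0, none of the 44 subunits was called at a Benjamini-Hochberg adjusted p under 0.05 for the mean of 14 and 21 days, where 2.29% of 8740 probe sets were called. At an unadjusted p under 0.05 there were 3 of 44, against 10.7% of probe sets: Htr3a, Grik1 and Chrna3, all 3 lower after CCI. The count was also 0 at 14 days (2.78% of probe sets called) and at 21 days (0.927%), with 1 and 4 subunits at an unadjusted p under 0.05, against 10.6% and 12.3%. Over the 44 genes the median log2 difference from sham was 0.09, with 26 positive and 15 negative, and it was 0 over all probe sets. At 14 days 3 subunits lay higher and 14 lower than sham without overlap of arrays (18.1% and 23.3% of probe sets did so), and at 21 days 4 and 2 (6.57% and 7.68%). Overlap was judged on the deposited intensities, those below 0 included. The 3 higher at 14 days, Gria3, Gabrb1 and Gabrr3, were below 0 on every array compared. So were Glra2 and Chrna1 among the 14 lower.

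Htr3a differed from sham by -0.49 on the log2 scale after CCI (SE 0.19, adjusted p = 0.338 in limma), with 5 of 6 CCI arrays below the sham mean of their day. The mean intensity was 495 ± 61.0 (SD, n = 3) against 744 ± 49.0 (SD, n = 2) at 14 days. At 21 days it was 579 ± 202 against 741 ± 59.5 (SD, n = 3 each). Folds here and below are ratios of geometric means, that is, of means taken on the log2 scale, and therefore differ from the ratio of the printed means. They were 1.51-fold lower at 14 days and 1.33-fold lower at 21 days. When limma's array weights gave arrays of poor fit less influence, Htr3a was called lower after CCI, at -0.61 and an adjusted p of 0.0149, with 3 subunits called (5.93% of probe sets). In bulk tissue, fewer cells of a type and less RNA per cell cannot be told apart. Of 18 sensory neuron markers 3 were called lower and none higher after CCI (Scn10a by -1.06, Scn11a by -1.11 and Snap25 by -0.60). The summed intensity of all 18 markers was 27734 to 33573 after CCI and 23446 to 34125 in sham ganglia at 14 days. At 21 days it was 40549 to 42175 against 32115 to 66459. Bright genes weigh most in this sum, such as Nefl at up to 19046, against at most 566 for Scn10a. The part of these markers in the Htr3a values was not tested.

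Grik1 was at 143 and 170 in sham ganglia at 14 days, 146, 171 and 145 at 21 days, and 114 and 74.9 at 50 days. In CCI ganglia it was at 94.3, 83.2 and 88.0 at 14 days and 216, 82.0 and 98.7 at 21 days. In Seltzer ganglia it was at 120 and 145, then 117, 106 and 89.6, and at 50 days 43.6 and 25.4. Every CCI array other than the array of high background lay below every sham array of 14 and 21 days, and all values were under the background level of their arrays, so no fold is given. Its log2 difference after CCI was -0.51 (SE 0.20, adjusted p = 0.322 in limma). Leaving out CCI replicate 1 at 21 days moved it to -0.70 with an adjusted p of 0.00968, where 3.02% of probe sets were called. It was also called with quantile normalization (-0.55, adjusted p = 0.0381, 2.39% of probe sets called) and with array weights (-0.68, adjusted p = 0.00399). At 14 days its difference was -0.72 (SE 0.29, adjusted p = 0.346), and it was called without that array of 21 days (adjusted p = 0.0476, 3.98% of probe sets) and with array weights (adjusted p = 0.0166, 8.97%). With values under 200 set to 200 the sign over both days turned, to 0.018, since only 1 of its 20 values exceeded 200.

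Chrna3 (L31621_s_at), the alpha3 partner of beta4, was at 132 and 60.6 in sham ganglia at 14 days, 74.1, 140 and 108 at 21 days, and -44.4 and 14.9 at 50 days. In CCI ganglia it was at 42.5, 38.0 and 29.7 at 14 days and -33.6, 64.6 and 49.4 at 21 days. In Seltzer ganglia it was at 92.9 and 101, then 65.4, 107 and 111, and at 50 days 28.0 and 44.7. The CCI arrays lay below the sham arrays at both days without overlap, the Seltzer arrays of those days overlapped the sham arrays, and no value was above background. The CCI difference was -1.24 (SE 0.38, adjusted p = 0.158 in limma), and with array weights it was called at -1.01 with an adjusted p of 0.0191.

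**Figure D2:**
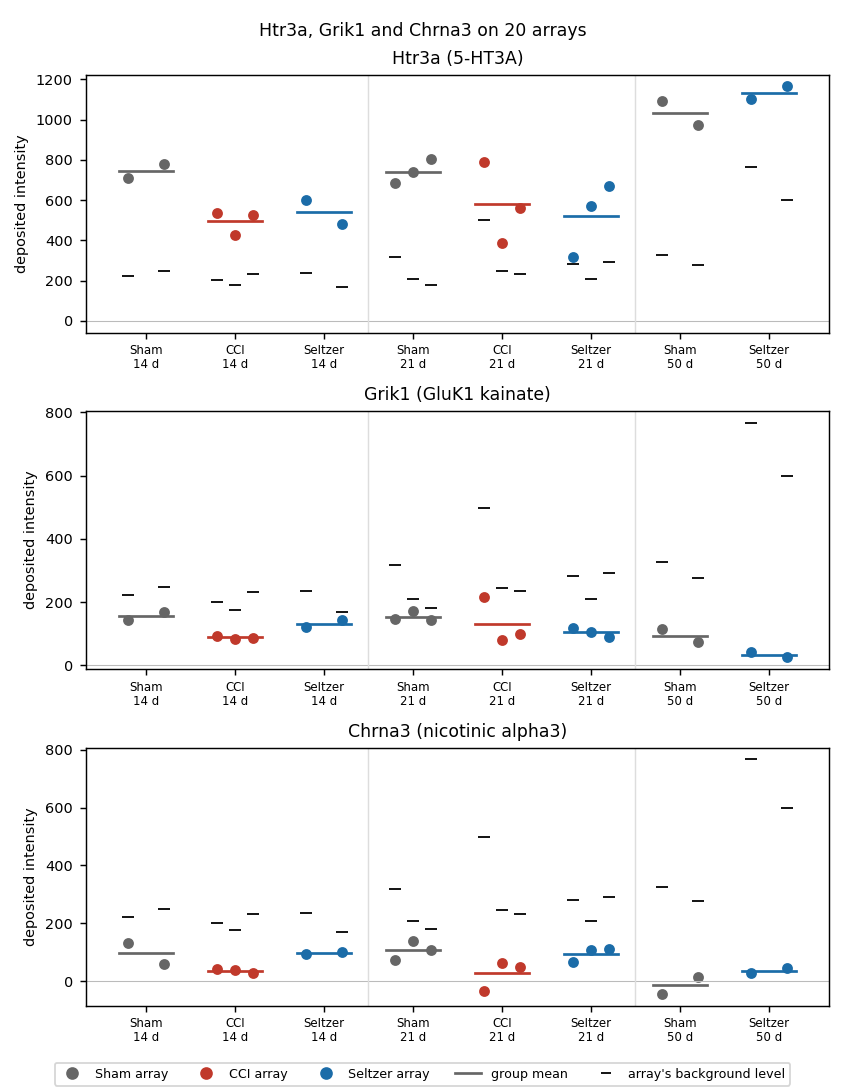
Deposited intensity (vertical axes, linear) of Htr3a, Grik1 and Chrna3 on each array, by surgery and day (horizontal axes), with group means as lines and the background level of each array as a short black bar. CCI arrays of Grik1 other than the one at 216 lie at 82.0 to 98.7, under the sham arrays of the same days at 143 to 171, and all points of Grik1 and Chrna3 lie under the background bars.

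The Seltzer comparison asks the same for the other injury model. At 14 and 21 days no subunit was called by limma (0.206% and 0.378% of probe sets were), with 0 and 3 at an unadjusted p under 0.05, against 3.78% and 6.6%. The 3 at 21 days were Gabra4 (-1.26), Gria1 (1.67) and Htr3a (-0.56), with adjusted p from 0.437 to 0.749. Arrays did not overlap for 7 higher and 9 lower subunits at 14 days (17.9% and 17.7% of probe sets), and for 4 higher and 3 lower at 21 days (4.97% and 5.46%). Of the 7 higher at 14 days, Gria3, Gabrb1 and Gabrr2 were below 0 on every array compared. All 5 Seltzer arrays of 14 and 21 days lay below the sham mean of their day for Htr3a, with geometric means 1.38-fold lower at 14 days and 1.49-fold lower at 21 days.

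For the mean of the 3 days no subunit was called either (4.38% of probe sets were), and 9 had an unadjusted p under 0.05, against 17.1%. Grik1 was nearest to the threshold, at -0.62 (SE 0.17, adjusted p = 0.069 in limma). It was called with quantile normalization, with arrays centred on their median, with only the Seltzer and sham groups in the fit, with array weights, and without CCI replicate 1 or replicate 2 at 21 days (adjusted p from 0.0043 to 0.0468). Without replicate 1 there were 4 subunits called (8.14% of probe sets), Grik1 lower, and Chrna5, Gabra2 and Gabrg1 higher.

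At 50 days after Seltzer injury 9 of 44 subunits were called, against 15.9% of probe sets, 8 of them higher (8.72% of probe sets) and 1 lower (7.2%). With 1 probe set per gene, as for the subunits, 857 of 4736 genes were called, 457 higher and 400 lower. Called higher were the GABA-A subunits Gabra2 by 1.70, Gabra3 by 1.32, Gabra4 by 2.68, Gabra5 by 2.96 and Gabrg1 by 1.53 on the log2 scale, the NMDA subunits Grin2b by 2.13 and Grin2d by 1.23, and Chrnb4 by 1.44. Grik1 was called lower, by -1.13 (SE 0.32, adjusted p = 0.0312 in limma). Of these 9, only Chrnb4 and Grin2b were above background on the Seltzer arrays. At an unadjusted p under 0.05 there were 14 of 44, against 29.7% of probe sets. For Chrnb4 the means were 953 ± 30.3 and 341 ± 24.8 (SD, n = 2 each), a 2.80-fold difference with an adjusted p of 0.0189. For Grin2b they were 785 ± 34.7 and 167 ± 7.06 (SD, n = 2 each). Neither sham array was above background for Grin2b. With the sham arrays taken at their background levels, its signal was 2.61-fold higher on the Seltzer arrays. This is no minimum fold, because the Seltzer values lay near the background levels of their own arrays. The adjusted p of its difference was 0.0384 in limma. The Seltzer values were 974 and 931 for Chrnb4 and 810 and 760 for Grin2b, on arrays with background levels of 766 and 599. Neither subunit passed the level that 99% of negative values stayed under, 1397 and 1120 on these arrays.

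The other 7 called subunits were under the background level on all 4 arrays. Gabra2 was at 357 and 317 after Seltzer injury at 50 days and at 91.4 and 94.1 in sham ganglia. Its other values were 184 and 202, then 107, 85.8 and 91.7 in sham ganglia, 147, 146 and 155, then 409, 131 and 103 in CCI ganglia, and 156 and 94.1, then 128, 161 and 161 in Seltzer ganglia at 14 and 21 days. Its 3 highest values were thus on the 3 arrays of high background. Gabrg1 (X57514_at) was likewise highest there, at 265 and 219 at 50 days and 244 on CCI replicate 1 at 21 days, and at 37.7 to 108 on the 17 arrays.

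Gabra3 (L08492cds_s_at) was at 338 and 499 on the Seltzer arrays of 50 days and at 97.5 and 242 on the sham arrays, and between 36.2 and 108 on the 16 arrays of 14 and 21 days. Gabra4 (L08493cds_s_at), an alpha subunit of extrasynaptic receptors, was at 117 and 104 against 8.4 and -41.2 in sham ganglia. Elsewhere Gabra4 ran from -49.5 to 62.2, and its highest value there was on CCI replicate 1 at 21 days. Gabra5 (L08494cds_s_at) was at 205 and 156 against 23.1 and -10.9, and elsewhere at most 119. Grin2d (D13213_s_at) was at 218 and 163 against 120 and 39.6, so that 1 sham array lay far under the other, and between 80.6 and 177 elsewhere. For all 7 the Seltzer and sham arrays of 50 days did not overlap, which held for 24 higher and 9 lower of the 44 subunits and for 33.4% and 37.2% of probe sets. All of the 9 lower but Grik1 were below 0 on both Seltzer arrays, Gabrb1 and Gabrr2 among them.

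The calls at 50 days rest on 4 arrays, 2 of them with the highest background of the series. Leaving out any of the 4 left 2 calls, Gabra4 and, in turn, Grik1, Chrnb2, Grin2d or Gabra3. The share of probe sets called was then 9.04% and 11.3% without Seltzer replicate 1 and 2, and 9.14% and 7.55% without sham replicate 1 and 2. Each such fit has 1 array in an arm and assumes that it varies like the arrays of the other groups. Over all arrays left out in turn, Gabra3 and Gabra5 lost the call without 14 of 20 each and Grin2b without 9, arrays of other groups included. Scaling mattered too: with quantile normalization 4 subunits were called (Chrnb4, Gabra2 and Gabra4 higher, Grik1 lower, 14.2% of probe sets), and with arrays centred on their median 6 (13.8%). Over all probe sets the calls split into 762 higher and 629 lower, 451 and 787 with quantile normalization, and 431 and 775 with centred arrays. With only the 2 groups of 50 days in the fit, 6 were called (9.62% of probe sets): Chrnb4, Gabra2, Gabrg1 and Grin2b remained, Gabrr1 (higher) and Glra3 (lower) were added, and Gabra3, Gabra4 (adjusted p = 0.0539), Gabra5, Grin2d and Grik1 were lost. Gabra3 lost its call with the replicate number as a block (adjusted p = 0.0632). With every value under an intensity of 200 set to 200, 5 were called (Chrna2, Chrnb4, Gabra3, Gabrr1 and Grin2b, all higher, 14.1% of probe sets), and of the 9 these kept Chrnb4, Gabra3 and Grin2b. On the same Seltzer arrays 9 of 18 sensory neuron markers were above background, against 14 and 15 in sham ganglia, and 6 were called lower (Isl1, P2rx3, Prph, Ret, Scn11a and Uchl1) and Snap25 higher. The summed signal of 20 skeletal muscle genes was 5917 and 8037 there, against 2714 and 2917 in sham ganglia. The part of background, RNA quality, neuronal share and muscle in these calls was not tested.

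**Figure D3:**
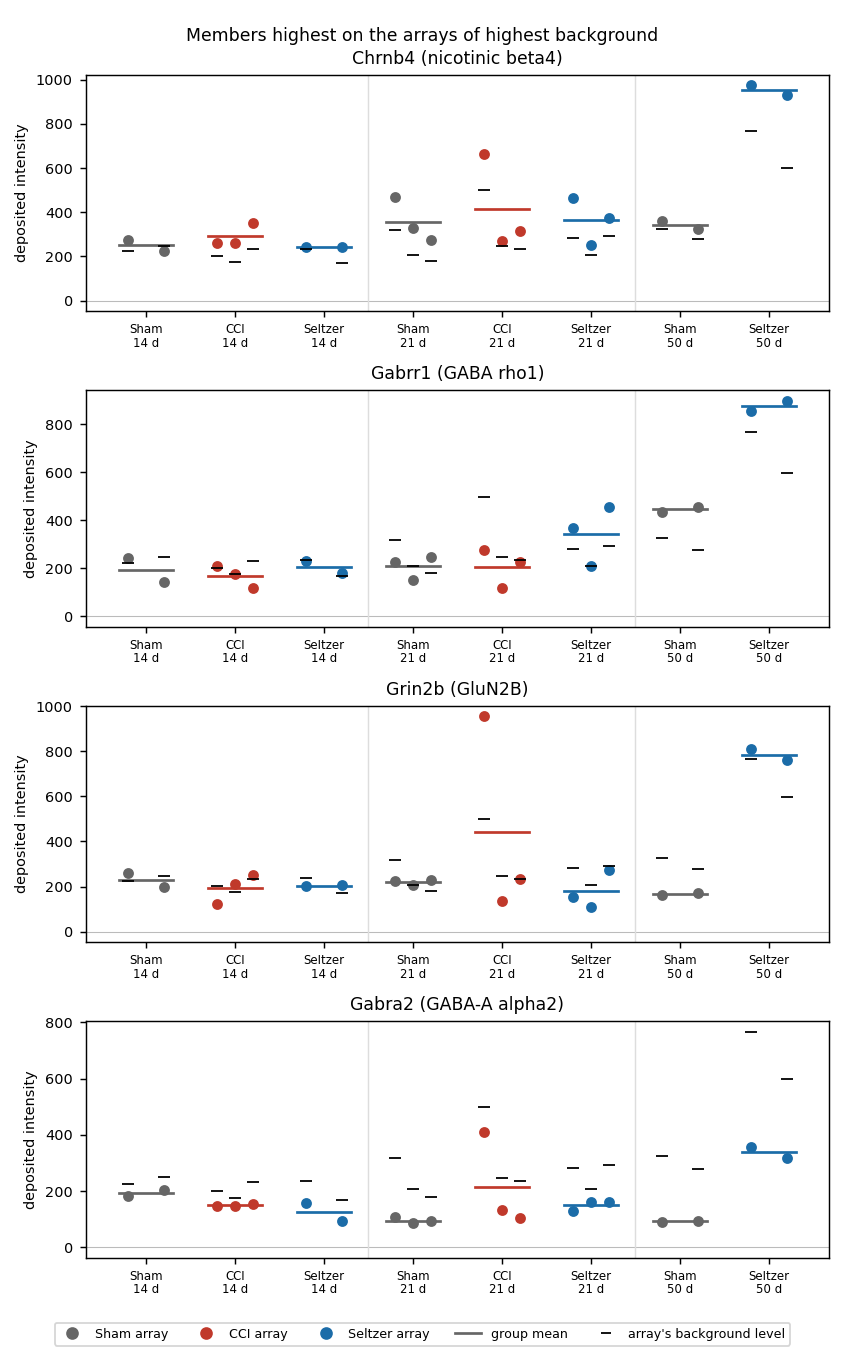
Deposited intensity (vertical axes, linear) of Chrnb4, Gabrr1, Grin2b and Gabra2 on each array, by surgery and day (horizontal axes), with group means as lines and the background level of each array as a short black bar. The Seltzer arrays at 50 days and CCI replicate 1 at 21 days carry the 3 highest values of Chrnb4, Grin2b and Gabra2, and also the 3 highest background bars.

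**Figure D4:**
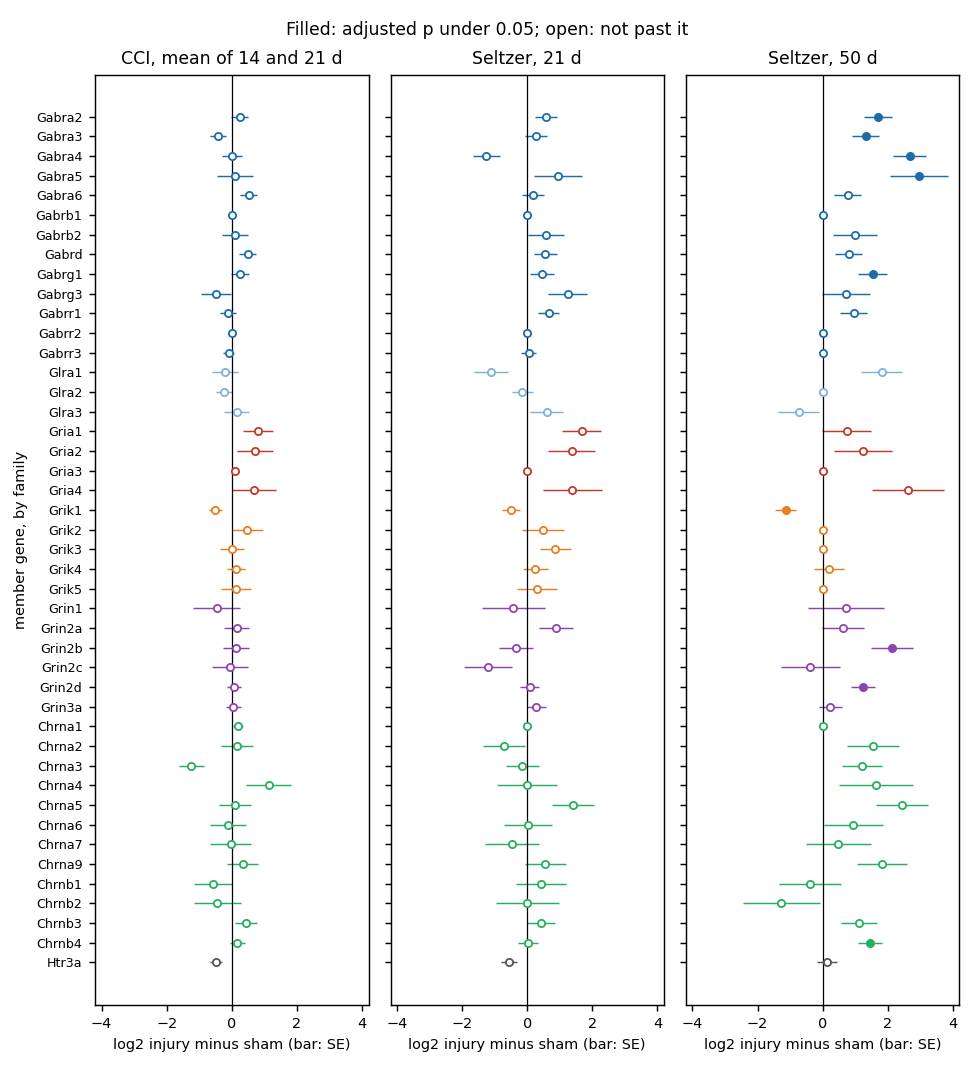
Log2 difference from sham of each of the 44 subunits (vertical axis, coloured by family) for CCI as the mean of 14 and 21 days, Seltzer at 21 days and Seltzer at 50 days, with the standard error as a bar and called subunits filled. No point is filled in the left and middle panels and 9 are filled at 50 days, 8 to the right of 0 and Grik1 to its left.

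By family, at 50 days 5 of 13 GABA-A subunits, 2 of 6 NMDA subunits, 1 of 12 nicotinic and 1 of 5 kainate subunits were called, and 0 of 4 AMPA subunits, 0 of 3 glycine subunits and not Htr3a (0.14, SE 0.28). The median log2 difference at 50 days was 0.95 for GABA-A, 1.17 for nicotinic, 0.67 for NMDA and 0.99 for AMPA subunits, 0 for kainate and for glycine subunits, and 0.14 for Htr3a. These values rest on the Seltzer arrays of highest background. The median was 0.75 over the 44 and 0 over all probe sets. After CCI the 4 AMPA subunits were all positive with a median of 0.69 and none called, and the family medians of the others lay between -0.21 and 0.13 except Htr3a. AMPA differences were made of intensities near 0: Gria2 was at 12.5, 9.91 and 28.7 after CCI at 14 days and at 126, 59.9 and 45.2 at 21 days, against 46.8 and -6.16, then 78.7, -10.7 and 7.59 in sham ganglia.

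The direct comparison of CCI with Seltzer over 14 and 21 days called no subunit (0.927% of probe sets were called), with 3 at an unadjusted p under 0.05 (8.98% of probe sets). These were Chrna3 at -1.21 (SE 0.38, adjusted p = 0.255 in limma), Gabra4 at 0.89 and Glra1 at 0.86. Htr3a differed by 0.02 (SE 0.19) between the models, and its sign turned with the scaling and with the array left out. In the test of the CCI effect at 21 days against that at 14 days limma called no subunit either (1.8% of probe sets were called), with 2 at an unadjusted p under 0.05, Chrna9 and Gabra2, against 11.4%. In both comparisons the count stayed at 0 in all 33 alternative fits. The Seltzer effect at 50 days was larger than the mean effect at 14 and 21 days for Gabra4 and Glra1, 2 of 44 subunits against 9.67% of probe sets, and 11 of 44 had an unadjusted p under 0.05, against 24.0%. This contrast too rests on the Seltzer arrays of highest background. Without CCI replicate 1 at 21 days 9 subunits were called in it (15.2% of probe sets), 8 higher and Grik1 lower, and with array weights 7 (15.4%).

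In sham ganglia 1 subunit differed over the 3 days by limma's F test, Chrna3 (adjusted p = 0.0299), against 8.48% of probe sets, and 4 had an unadjusted p under 0.05, against 21.2%. Its mean was 96.5 ± 50.7 (SD, n = 2) at 14 days, 107 ± 32.9 (SD, n = 3) at 21 days and -14.7 ± 41.9 (SD, n = 2) at 50 days. The call was lost without sham replicate 1 at 14 days, replicate 2 or 3 at 21 days, or either array at 50 days (adjusted p from 0.0506 to 0.313). It was also lost with 1 in place of 16 added before the log (0.121), with centred arrays (0.0822) and with only the sham groups in the fit (0.0921). Gabrr1 and Gabrd, whose highest sham values were those of 50 days, did not pass (adjusted p = 0.138 and 0.18). The ratio of 3′ to middle GAPDH signal was 2.84 and 2.85 on the sham arrays of 50 days. It was 0.998 to 1.90 on those of 14 and 21 days. The part of this in sham differences over days, those of Htr3a and Nptx1 included, was not tested.

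Over all 8 groups 9 subunits differed by the F test, against 24.2% of probe sets, and 15 had an unadjusted p under 0.05, against 36.5%. The 9 were Htr3a (adjusted p = 0.0331), Gabra3 (0.00284), Gabra4 (0.00386), Gabra6 (0.037), Gabrd (0.0271), Gabrr1 (0.00653), Grik1 (0.0116), Chrna3 (0.0406) and Chrnb4 (0.025). The group order of Gabrd had the 50-day groups on top. It was at 616 and 367 after Seltzer injury at 50 days and at 270 and 265 in sham ganglia. At earlier days sham ganglia gave 114 and 150, then 67.9, 146 and 147, CCI ganglia 161, 124 and 190, then 377, 145 and 149, and Seltzer ganglia 108 and 106, then 152, 197 and 183. Gabra6 (L08495cds_s_at) was at 150 and 249 after Seltzer injury and 94.5 and 121 in sham ganglia at 50 days, and CCI replicate 1 at 21 days reached 181. Its other values were 61.7 and 35.0, then 60.7, 74.2 and 69.0 in sham ganglia, 66.5, 41.2 and 90.7, then 99.5 and 92.5 in CCI ganglia, and 57.2 and 27, then 125, 69.4 and 53.3 in Seltzer ganglia. Only Htr3a, Chrnb4 and Gabrr1 of these 9 were above background on more than 10 arrays. With the replicate number as a block, Gabra6 and Gabrd lost the call and 7 were left (22.4% of probe sets). Gabra3, Gabra4 and Gabrr1 kept the call without any single array. Grik1 lost it without Seltzer replicate 2 of 50 days (adjusted p = 0.0992) and Chrnb4 without either Seltzer array of 50 days (0.141 and 0.167). Gabrd lost it without 5 arrays, Gabra6 without 11 and Chrna3 without 14. Chrna3 also lost it with 1 added before the log (0.202), with quantile normalization (0.0579) and with centred arrays (0.0746), and had no values above 200.

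For Htr3a the group means, in falling order, were 1134 (Seltzer, 50 days), 1030 (sham, 50 days), 744 (sham, 14 days), 741 (sham, 21 days), 579 (CCI, 21 days), 541 (Seltzer, 14 days), 518 (Seltzer, 21 days) and 495 (CCI, 14 days). The 4 injured groups of 14 and 21 days overlapped each other, the 2 sham groups of those days overlapped each other, and the 2 groups of 50 days lay above all others. The F test of Htr3a lost its call with quantile normalization (adjusted p = 0.0565) and without any of 12 arrays, with adjusted p from 0.051 to 0.102. These were the CCI arrays of 14 days, Seltzer replicate 2 at 14 days, both Seltzer arrays of 50 days, the sham arrays of 14 and 50 days, and sham replicates 2 and 3 at 21 days.

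Where a gene had several probe sets they often differed in the size or the sign of the difference. Of the 19 such genes, Htr3a had 2 other probe sets, both under background on every array and both lower after CCI as well. U59672_at differed by -0.84 (adjusted p = 0.0809 in limma) and D49395_s_at, below 0 on 13 arrays, by -0.50. Over the Seltzer days U59672_at was at -0.67 but D49395_s_at at 0.38, against -0.29 on the representative. Gria2 had -0.57 on its second probe set against 0.71 on the representative, Grin2c 0.61 against -0.06, and Grin1 0.89, -0.32 and -0.16 against -0.47 after CCI. Glra1 had 0.62 and 0.31 against -0.21. At 50 days after Seltzer injury the other probe set had the same sign but a smaller difference for Gabra4 (0.20 against 2.68) and Gabra5 (0.50 against 2.96). The same held for Chrnb4 (0.30 against 1.44) and Grin2d (0.85 against 1.23). For Gabra3, at 1.32, the other probe set was below 0 on all 20 arrays and so could show no difference. All these other probe sets were under background on every array.

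Partner genes that make, move or anchor the transmitters and receptors were measured for 23 of 31 genes of GABA and glycine handling, 34 of 51 of glutamate handling and 8 of 16 of acetylcholine handling. After CCI 0, 2 and 1 of these were called for the mean of both days, against 2.29% of all probe sets. Camk2d, the delta subunit of calcium/calmodulin-dependent kinase II, rose by 0.98 (SE 0.13, adjusted p = 0.000759 in limma). It was at 1039, 1006 and 890, then 998, 964 and 1013 in CCI ganglia, against 536 and 567, then 383, 434 and 504 in sham ganglia, with no overlap. Ache, the acetylcholine-degrading esterase, fell by 0.56 (SE 0.09, adjusted p = 0.00441), from 481 and 433, then 382, 419 and 429 in sham ganglia to 266, 281 and 280, then 250, 335 and 323. Quantile normalization (adjusted p = 0.0625), arrays centred on their median (0.178) and the dimmest probe sets left out (0.0697) ended the call of Ache. Skeletal muscle, in which Ache is also expressed, had a summed signal of 11714 to 13638 after CCI at 14 days against 6280 to 7179 in sham ganglia, and of 2542 to 4536 against 6563 to 6789 at 21 days. The part of muscle in the Ache values was not tested.

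Nptx1, neuronal pentraxin 1, a secreted protein that gathers AMPA receptors, was called lower in both models, by -0.34 over the CCI days (SE 0.07, adjusted p = 0.0191) in a call that 6 of 32 alternatives ended. In sham ganglia it was at 519 and 552 at 14 days, 797, 817 and 776 at 21 days, and 2778 and 2776 at 50 days. After CCI it was at 521, 515 and 544, then 502, 513 and 472, and after Seltzer injury at 422 and 370, then 546, 464 and 440, and at 50 days 1587 and 1219. The Seltzer arrays lay under the sham arrays at each day, the CCI arrays only at 21 days. Nptx1 fell by 0.71 over the Seltzer days (SE 0.06, adjusted p = 2.21e-05) and by 0.67 at 21 days after CCI (SE 0.09, adjusted p = 0.00259). Camk2d rose by 0.52 over the Seltzer days (adjusted p = 0.0216), in a call that 7 of 32 alternatives ended. Seltzer ganglia also had 2 of 23 GABA and glycine genes called, against 4.38% of all probe sets. Gabbr2, a subunit of the metabotropic GABA-B receptor, fell by 0.92 (SE 0.18, adjusted p = 0.00964). Without the 50-day arrays its difference was -0.35 and not called. At 50 days it was at 108 and 136 after Seltzer injury, under background on both arrays, against 582 and 532 in sham ganglia. Earlier Seltzer values were 408 and 413, then 387, 516 and 378, against 505 and 488, then 575, 546 and 617 in sham ganglia. CCI ganglia, in which Gabbr2 was not called, gave 351, 345 and 396, then 141, 357 and 375. Slc32a1, the vesicular GABA transporter, had a difference of 1.26 (adjusted p = 0.0281) but was never above background.

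**Figure D5:**
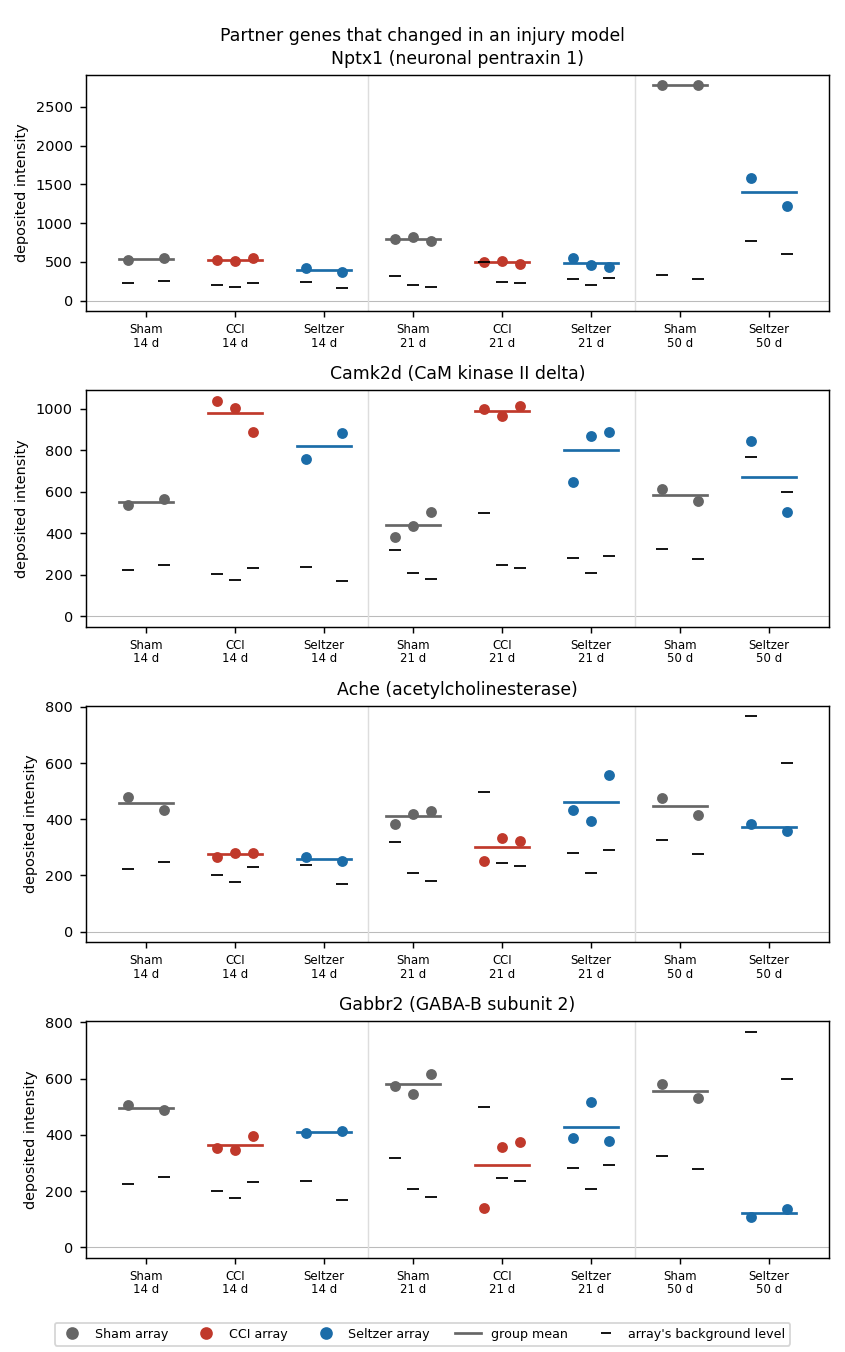
Deposited intensity (vertical axes, linear) of Nptx1, Camk2d, Ache and Gabbr2 on each array, by surgery and day (horizontal axes), with group means as lines and the background level of each array as a short black bar. CCI arrays of Camk2d lie at 890 to 1039 against 383 to 567 in sham ganglia of 14 and 21 days, and the sham arrays of Nptx1 lie at 519 and 552 at 14 days and at 2778 and 2776 at 50 days.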

How the data were processed

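The authors deposited 1 table of linear probe-set intensity for 20 arrays, already background-subtracted by an unknown method, since 29.0% of values are below 0. Which software, background step and scaling made them is not given in the sources used here, and the number of arrays limits the precision. Genes come from the platform's probe table, with symbols updated by Entrez number to GRCr8 (0 members changed); 7006 probe sets had 1 symbol, 308 several and 1426 none, and 59 controls were left out. Intensities below 0 were set to 0, 16 was added, and log2 values of 8740 probe sets were fitted with 8 group means (limma 3.58.1, R 4.3.3, 12 residual degrees of freedom), two-sided, with Benjamini-Hochberg adjustment per comparison. The added 16 shrinks differences of low intensities on this scale. Setting negative values to 0 keeps noise about 0 only on its positive side. A difference of a dim gene is therefore no lower bound of a change. Values on every array are given for members above background on at least 10 arrays and for most members past an adjusted p of 0.05 in the fit to all arrays. Gabra3, Gabra4, Gabra5, Gabrg1, Grin2d and Glra1 also passed it, with values on some arrays only. The members and gene lists were chosen with earlier results of these data known. The script was tested on simulated data. Replicate numbers paired samples unevenly: deviations from group means correlated at 0.299, 0.226 and 0.110 between Seltzer and sham ganglia at 21 days and at most 0.0931 between CCI and sham ganglia, and the labels of 3 samples name a lot batch by the replicate number. The replicate block was therefore an alternative, as were other offsets, scalings, filters, array weights and leaving out each array.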

Additional observations from a re-analysis of the deposited data

Results flagged for a closer look

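The Seltzer difference from sham at 50 days was larger than the mean difference at 14 and 21 days for 2 subunits in limma's test of that contrast, where 9.67% of probe sets were called. The contrast was added after the data were seen. For Gabra4 it was 3.55 on the log2 scale (SE 0.60, adjusted p = 0.00266), and Seltzer arrays gave -13.2 and 0.913, then 0.602, -4.04 and -49.5, and at 50 days 117 and 104. For Glra1 it was 2.88 (SE 0.75, adjusted p = 0.0308), and Seltzer arrays gave 9.42 and -10.7, then -30.3, 35.3 and 31.3, and at 50 days 141 and 107. All these intensities were under the background level of their arrays. Gabra4 kept its call in the 29 alternatives that could give it a value, and Glra1 lost it in 9 of its 29. With values under 200 set to 200 both genes have the same value on every array, so that neither has a difference or a call. Over the alternatives the count of subunits called in this contrast ran from 1 to 9.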

How the results depend on the processing

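The count of called subunits stayed at 0 in every alternative for CCI at 21 days, Seltzer at 14 and at 21 days, CCI against Seltzer, and CCI at 21 against 14 days. Other counts moved, and the cause was not tested. Percentages are the share of all probe sets called in the same fit. Quantile normalization gave 1 for CCI over both days (2.39%), 1 for Seltzer over the 3 days (5.01%), 4 at 50 days (14.2%) and 5 over the 8 groups (22.9%). Array weights gave 3 (5.93%), 4 (9.97%), 10 (20.6%) and 14 (34.6%), besides 1 for CCI at 14 days (8.97%) and 6 for sham over days (20%). Centring arrays gave 1 for Seltzer over the 3 days (2.63%) and 0 for sham over days (6.37%), and shifted the median of all probe sets by -0.34 at 50 days. Fitting only the groups compared gave 1 for CCI at 14 days (5.88%), 3 for Seltzer over the 3 days (4.98%), 6 at 50 days (9.62%) and 2 for sham (6.98%). Adding 1 before the log gave 0 for sham (8.03%). Leaving out CCI replicate 1 at 21 days and the Seltzer 50-day arrays, chosen after seeing the data, gave 1 for CCI over both days (3.39%), 1 at 14 days (4.34%) and 4 for sham (13.7%). Setting values under 200 to 200, also chosen later, gave 2 for Seltzer over the 3 days (7.11%) and 5 at 50 days (14.1%), and gave no difference for subunits under 200 throughout. Leaving out each array gave 0 to 1 for CCI over both days and at 14 days, 0 to 4 for Seltzer over the 3 days, 2 to 12 at 50 days, 0 to 3 for sham and 4 to 15 over the 8 groups. The highest of these were without CCI replicate 1 at 21 days, where 8.14% of probe sets were called for Seltzer over the 3 days, 21.6% at 50 days and 31.0% over the 8 groups. Expressed subunits numbered 1 or 18 with the other background levels. With the replicate block the counts were 8 at 50 days, 7 over the 8 groups and 1 for sham. They were 3 for the Seltzer effect at 50 days against that at 14 and 21 days, and 0 in the other comparisons.

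Signs turned in comparisons that were not called. Htr3a in CCI against Seltzer became -0.037 with centred arrays, -0.021 with the replicate block, -0.16 with array weights and -0.11 without CCI replicate 1 at 21 days, with or without the Seltzer 50-day arrays, and ran from -0.13 to 0.14 when each array was left out, and its Seltzer difference at 50 days became -0.20 with centred arrays. Chrna3 after Seltzer injury became -0.034 over the 3 days without the 50-day arrays or without the 3 arrays of high background, and with each array left out ran from -0.39 to 0.56 at 14 days and from -0.36 to 0.055 at 21 days. Grik1 became 0.018 for CCI over both days and against Seltzer, and 0.037 for CCI at 21 days, with values under 200 set to 200. Signal over background limits 38 of the 44 subunits, for which no fold can be given.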

Other observations

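At 50 days after Seltzer injury several partner genes were called besides the receptor subunits. Among GABA and glycine genes the metabotropic subunits Gabbr1 and Gabbr2 fell by 1.09 and 2.06 on the log2 scale (adjusted p = 0.0385 and 0.000993 in limma), the chloride importer Slc12a2 fell by 0.95 (adjusted p = 0.00863) and Dbi, the diazepam-binding inhibitor, fell by 0.77 (adjusted p = 0.0192). Among glutamate genes Glud1, glutamate dehydrogenase, fell by 1.17 (adjusted p = 0.00255) and Nptx1 fell by 0.99 (adjusted p = 0.000101), while Camk2b rose by 1.06 (adjusted p = 0.0457) and Grina by 0.71 (adjusted p = 0.0387). Slc18a3, the vesicular acetylcholine transporter, had a difference of 1.65 (adjusted p = 0.0158). Slc6a11, a GABA transporter, had a difference of 0.90 (adjusted p = 0.0322) and was above background on 3 arrays. Gphn, Homer1, Chrne and Slc32a1 were called higher but were never above background, and Gabbr2 was under background on both Seltzer arrays of 50 days. Of the 23 measured GABA and glycine genes, 1 was above background on each of these Seltzer arrays, against 4 and 5 on the sham arrays. At most 1 of the GABA and glycine genes called lower was therefore above it on either Seltzer array. Gabbr1 was above background on 8 arrays of the series. These calls come from the 2 arrays of highest background and 2 sham arrays, on which 15.9% of probe sets were called.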
